A study of Homo sapiens with 6 samples.

Results

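Cell surface proteins are the usual handles by which tumour-initiating cells are sorted from colorectal cancers, and 9 genes behind the most used handles were followed here. They are PROM1, CD44, ALCAM, EPCAM, CD24, DPP4, CXCR4, LGR5 and ALDH1A1, and all 9 were measured, out of 18404 genes on the array. A gene entered through a probe set, the group of probes summarised into 1 value, whose only gene symbol in the array's annotation was the gene itself. Where a gene had several such probe sets, the one of highest mean over the 6 arrays stood for it. ALDH1A1 encodes a cytosolic enzyme and is in the set because its activity is used in the same kind of sort.

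The cells were HCT116, an established human colorectal carcinoma line, separated into a CD133+ and a CD133- fraction, with 3 arrays per fraction numbered as repetitions 1 to 3 in each. Both fractions came from the same line and no treatment, edit or transgene is labelled, so the CD133- cells serve as the control. Being 1 cell line in culture, the fractions hold no stromal or immune cells of a tumour. The labels do not say that repetitions were separate cultures or sorts, so p-values cover the spread between these arrays, which may be technical.

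CD133, the product of PROM1, is a glycoprotein that spans the membrane several times and gathers on cell protrusions. CD44 binds hyaluronan, ALCAM (CD166) and EPCAM are adhesion molecules, and CD24 is a small, heavily glycosylated protein held by a lipid anchor. DPP4 (CD26) is a surface peptidase, and one of its substrates is CXCL12, the ligand of the receptor CXCR4. LGR5 is a receptor for R-spondins that marks crypt base stem cells of the intestine, where it strengthens Wnt signalling. In colorectal tumours the cells that these markers label overlap only in part.

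Of the 9 genes, PROM1 and DPP4 were higher in CD133+ cells and CD24 was lower, each without overlap between the fractions. For the other 6 genes, each by its chosen probe set, the fractions overlapped and the differences stayed between -0.28 and 0.24 on the log2 scale. A second probe set of EPCAM was higher in CD133+ cells by 0.30 without overlap, and was not called. Signals are log2 values after Robust Multichip Average (RMA) processing, and every difference is CD133+ minus CD133-. A probe set was called when limma's p, adjusted by Benjamini-Hochberg over 28230 probe sets, was below 0.05. There were 2 limma fits, one with the fraction as the only term and one that also held the repetition number as a block, since same-numbered arrays deviated together. With the fraction alone 0 of the 9 genes passed, against 0.00354% of all probe sets (3 of the 9 had an unadjusted p under 0.05, against 3.45%). With the block 3 of the 9 passed, against 0.298% of all probe sets. These were 2 higher, against 0.166%, and 1 lower, against 0.131%. At an unadjusted block p under 0.05, 3 of the 9 were higher and 3 lower, against 11.3% of all probe sets. PROM1, the gene of the sort, is in each of these block counts of higher genes, and the 9 genes were chosen with earlier results of these data known. The shares beside the counts are thus a description and no test.

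PROM1 measured 7.59, 7.36 and 7.09 in repetitions 1, 2 and 3 of the CD133+ cells. In the CD133- cells it measured 5.30, 4.46 and 3.97. All CD133+ arrays stood far above all CD133- arrays, and the order of the repetitions was the same in both fractions. The sort was made on the protein of this gene, so its difference checks the labels and is no finding. Within repetitions 1, 2 and 3 the difference was 2.29, 2.90 and 3.12, or 2.77 on average (95% interval with the block 2.39 to 3.15; limma adjusted p = 0.142 with the fraction alone and 0.0120 with the block). The CD133- arrays thus varied more (SD 0.67) than the CD133+ arrays (SD 0.25), and the repetition with the lowest CD133- signal had the widest gap. Fewer CD133-expressing cells in a fraction and less PROM1 RNA per cell cannot be told apart in bulk RNA.

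DPP4, which removes dipeptides from the ends of peptide hormones and chemokines, measured 7.98, 7.03 and 6.91 in CD133+ repetitions 1, 2 and 3. The CD133- arrays measured 6.66, 5.32 and 5.61. The lowest CD133+ array lay above the highest CD133- array, although repetition 1 was high in both fractions and narrowed that gap. With the repetition block DPP4 rose by 1.44 (SE 0.11), a 2.72-fold higher signal, with limma adjusted p = 0.0203. With the fraction alone the same difference had SE 0.39 and adjusted p = 0.992. In all 3 repetitions CD133+ cells had the higher signal, by 1.32, 1.71 and 1.30. Among the 18404 genes, DPP4 ranked 11 by absolute difference, behind PROM1 at rank 1.

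CD24, a ligand of P-selectin and of the inhibitory receptor Siglec-10, went the opposite way. Its CD133+ arrays measured 4.68, 4.67 and 5.26 in repetitions 1, 2 and 3. The CD133- arrays measured 5.69, 5.56 and 6.52. The fractions did not overlap, and repetition 3 was the highest in each. With the block CD24 fell by 1.05 on the log2 scale (SE 0.10, limma adjusted p = 0.0261), a 2.08-fold higher signal in CD133- cells, against SE 0.28 and adjusted p = 0.952 with the fraction alone. It was lower in 3 of 3 repetitions, by -1.01, -0.89 and -1.26. Near-identical copies of CD24 in the genome can share its probes. The gene lies on chromosome 6 in the RefSeq annotation of GRCh38.p14, yet 11 of the 20 probe sets next to this one by identifier belong to genes of chromosome Y. Which copy the signal stems from was not tested.

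The calls of these 3 genes rested on the block and on particular rows and arrays. When the 4091 leading table rows without a gene were kept in the block fit, 0 of the 3 passed (limma adjusted p = 0.109 for PROM1 and DPP4 and 0.148 for CD24). Without repetition 3 the block fit called none of them either (limma adjusted p = 0.0980, 0.108 and 0.135 for PROM1, DPP4 and CD24), and CD24 also missed the threshold without repetition 1 (0.0527) or 2 (0.0701). Keeping the leading rows cannot change the sizes. They hardly moved in the fits without a repetition. There PROM1 lay between 2.60 and 3.01, DPP4 between 1.31 and 1.51 and CD24 between -1.14 and -0.95. Of the 9 genes, 3 had fractions that did not overlap, against 7.95% of the 18404 genes; 2 were higher, against 3.43%, and 1 lower, against 4.52%. PROM1, the gene of the sort, is among the 3. EPCAM is not, by its chosen probe set, although its second one did not overlap. For PROM1, DPP4 and CD24 each, permuting the fraction labels exactly, two-sided and without regard to pairs, gave p = 0.1. That is the smallest value that 3 arrays against 3 allow, and an exact paired test of 3 pairs could not go below 0.25.

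**Figure D1:**
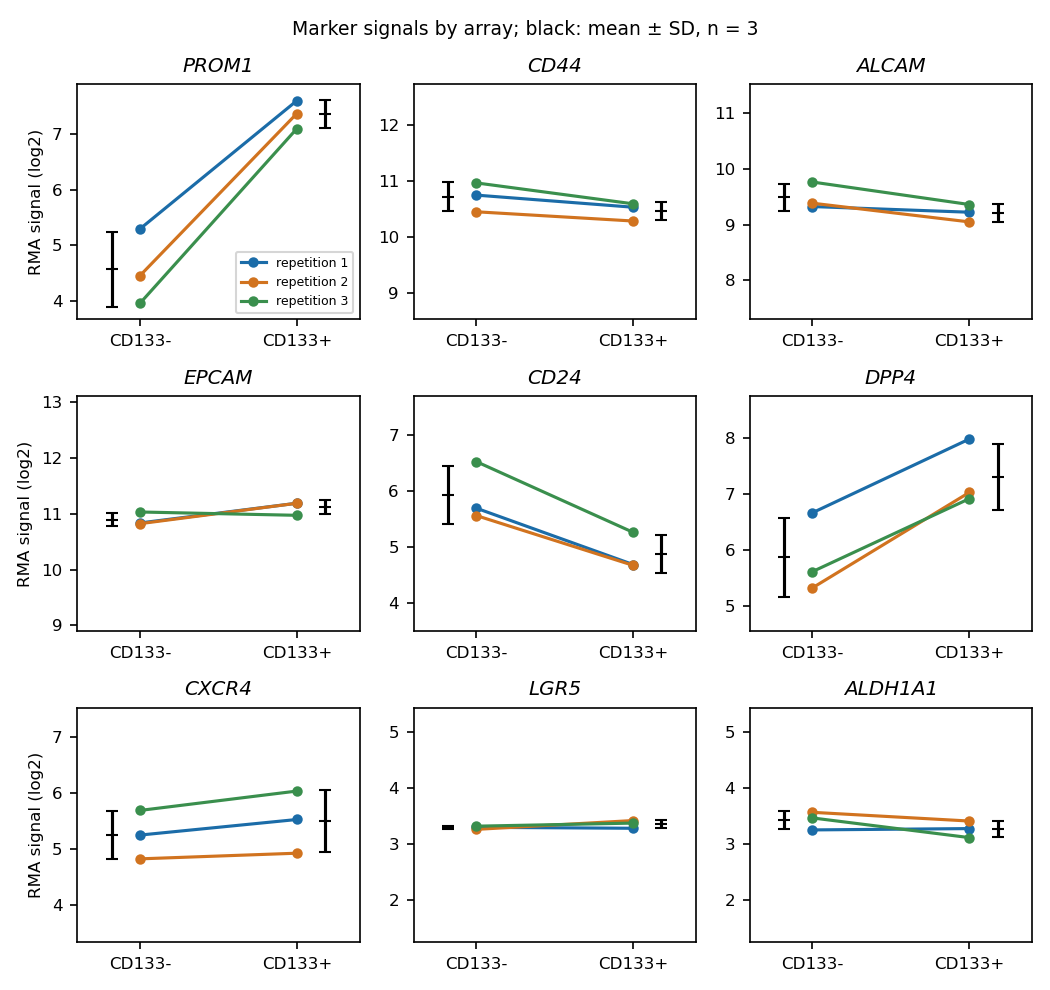
RMA signal (log2) of each of the 9 genes in CD133- and CD133+ arrays, 1 panel per gene, each panel spanning the same range of signal. Coloured lines join the arrays of a repetition and black bars give mean ± SD (n = 3). PROM1 and DPP4 slope upward and CD24 downward in every repetition, whereas CXCR4 lines are stacked by repetition and LGR5 and ALDH1A1 lie flat near 3.3.

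The stretches of DNA just upstream of PROM1 and DPP4 are shown because both genes were higher in CD133+ cells. Each is the 250 bases before the outermost RefSeq start in GRCh38.p14, 5′ to 3′ on the gene's own strand, which is the minus strand for both. PROM1 has 4 starts in that table and DPP4 has 1, and which start the cells used was not tested. Capitals mark matches to any motif searched. PROM1 lies at chr4:16084024-16084273 and DPP4 at chr2:162074216-162074465.
PROM1: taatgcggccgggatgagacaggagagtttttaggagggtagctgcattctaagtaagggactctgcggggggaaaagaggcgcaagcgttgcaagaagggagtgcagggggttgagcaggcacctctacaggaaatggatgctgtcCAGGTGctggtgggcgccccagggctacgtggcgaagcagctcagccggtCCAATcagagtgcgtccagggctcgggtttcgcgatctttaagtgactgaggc
DPP4: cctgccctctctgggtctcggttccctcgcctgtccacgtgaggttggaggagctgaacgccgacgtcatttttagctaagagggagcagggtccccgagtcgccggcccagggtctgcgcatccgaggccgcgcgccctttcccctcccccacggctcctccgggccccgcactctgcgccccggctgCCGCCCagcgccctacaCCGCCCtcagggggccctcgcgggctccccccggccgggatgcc
Motifs were searched on both strands and could overlap. The GC box was searched as GGGCGG. The CCAAT box was searched by those letters. The TATA box was searched as TATAAA. For factors of the ETS family, such as EHF, the letters were CCGGAAG. For the E-box bound by ZEB and SNAI repressors they were CACCTG. For GRHL factors the search used AACCNGTT. For the TCF/LEF partners of beta-catenin it used CTTTGAT. PROM1 held 1 CCAAT, 49 to 53 bases before the start, and 1 E-box, 98 to 103 bases before it. Among 35116 promoter windows of the same length, 32.0% held a CCAAT and 17.5% the E-box. DPP4 held 2 GC boxes, a motif found in 42.6% of windows. Neither held the ETS, GRHL, TCF/LEF or TATA letters, which occurred in 8.52%, 1.49%, 2.26% and 10.7% of windows. DPP4's window was the richer in G and C (73.6%, with 26 CG pairs), against 58.8% and 13 for PROM1 and medians of 58.0% and 11 over all windows. These matches describe letters and not binding. Of the other genes, CXCR4 held TATAAA in 2 overlapping matches beside 3 GC boxes, CD44 held 2 GC boxes, ALCAM held 1 GC box and 1 E-box, and ALDH1A1 held 1 CCAAT. EPCAM and LGR5 had no entry. The window of the outermost CD24 start in the table did not lie outside the gene's bounds, so CD24 was left out.

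CD44 and ALCAM had slightly lower signals in CD133+ cells in every repetition, without a call. CD44, the hyaluronan receptor, measured 10.53, 10.28 and 10.59 in CD133+ repetitions 1, 2 and 3, and 10.74, 10.45 and 10.96 in the CD133- ones. The fractions overlapped, because repetition 2 was low in both. Its difference was -0.25 (95% interval -0.62 to 0.12 with the fraction alone, -0.46 to -0.05 with the block; limma adjusted p = 1.00 and 0.356). The probe set covers the gene as a whole, so the standard and variant splice forms of CD44 cannot be told apart. ALCAM measured 9.22, 9.05 and 9.36 in CD133+ arrays and 9.32, 9.38 and 9.76 in CD133- arrays. Its highest CD133+ array overlapped the lowest CD133- array, and the difference was -0.28 (95% interval -0.63 to 0.08 with the fraction alone, -0.50 to -0.05 with the block; limma block adjusted p = 0.350).

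EPCAM, a pan-epithelial adhesion molecule, had 2 probe sets, both bright. The one of higher mean measured 11.19, 11.19 and 10.97 in CD133+ repetitions 1, 2 and 3 and 10.83, 10.82 and 11.03 in CD133- ones. CD133+ arrays were higher in repetitions 1 and 2 and lower in repetition 3, so the fractions overlapped, with a difference of 0.22 (95% interval -0.06 to 0.50 with the fraction alone; limma block adjusted p = 0.523). All 20 of that probe set's neighbours by identifier belong to chromosome 4, whereas EPCAM lies on chromosome 2. The second probe set, whose 20 neighbours are all on chromosome 2, measured 10.62, 10.65 and 10.41 in CD133+ and 10.20, 10.26 and 10.30 in CD133- arrays. Here the fractions did not overlap and CD133+ was higher in 3 of 3 repetitions, by 0.30 (95% interval 0.04 to 0.57 with the fraction alone; limma block adjusted p = 0.322), which was no call either. The chosen probe set and its partner thus differed in repetition 3, where they gave -0.06 and 0.11.

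CXCR4 differed between repetitions far more than between fractions. It measured 5.52, 4.92 and 6.03 in CD133+ repetitions 1, 2 and 3 and 5.24, 4.82 and 5.69 in the CD133- ones. CD133+ was higher within each repetition, by 0.28, 0.10 and 0.35, but the fractions overlapped widely. The mean difference was 0.24 (95% interval -0.48 to 0.96 with the fraction alone, 0.03 to 0.45 with the block; limma block adjusted p = 0.385). Repetitions held 90.4% of its sum of squares over the 6 arrays and the fraction 8.12%. When CD133+ repetition 3 was left out of the fit without a block, the difference was -0.028, a sign that follows from removing the brightest array of the brightest repetition.

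LGR5 and ALDH1A1 were dim, below the median signal of the array on 6 of 6 arrays. LGR5 measured 3.28, 3.42 and 3.38 in CD133+ repetitions 1, 2 and 3 and 3.30, 3.26 and 3.32 in the CD133- ones, so all 6 arrays lay close together. Its difference was 0.07 (95% interval -0.17 to 0.30 with the fraction alone; limma block adjusted p = 0.826). ALDH1A1, which oxidises retinal to retinoic acid, measured 3.27, 3.40 and 3.11 in CD133+ and 3.25, 3.56 and 3.46 in CD133- arrays. The fractions overlapped, with a difference of -0.16 (95% interval -0.47 to 0.15 with the fraction alone; limma block adjusted p = 0.613). RMA values carry no detection call, so a low LGR5 or ALDH1A1 signal cannot be told from background.

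**Figure D2:**
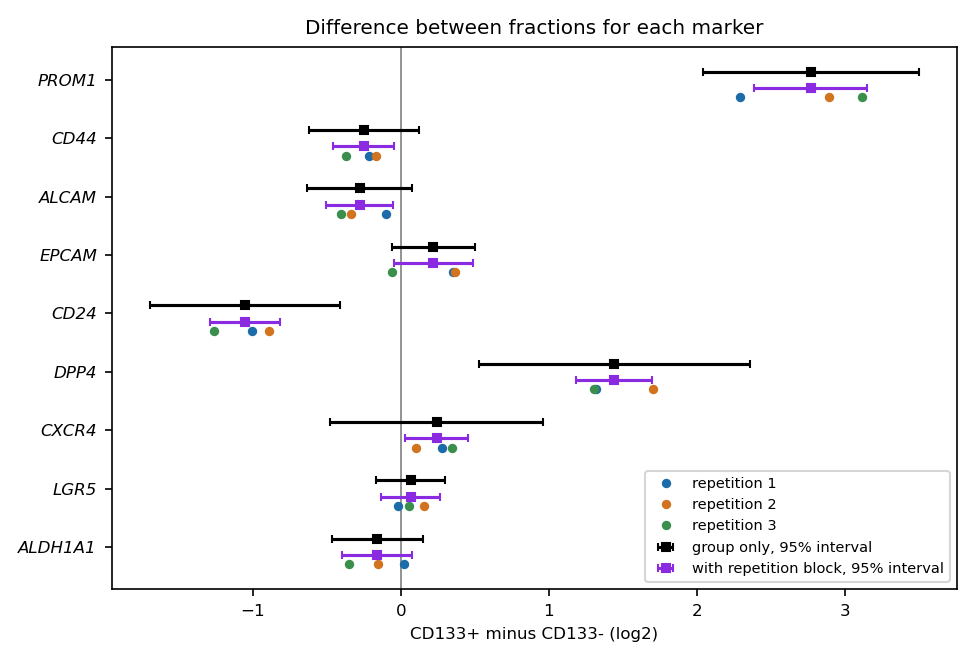
Difference in signal, CD133+ minus CD133- (log2), for each of the 9 genes. Squares are the mean difference with 95% intervals from limma with the fraction alone (black) or with the repetition block (purple), and coloured points are the single repetitions. PROM1, DPP4 and CD24 lie clear of 0 in each repetition, and the intervals of the other 6 genes with the fraction alone include 0. CD44, ALCAM and CXCR4 lie nearer to 0 but on 1 side of it in each repetition. Their intervals with the block exclude 0, without a call.

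The genes differed in what their spread followed. For PROM1 the fraction held 91.8% of the sum of squares over the 6 arrays and the repetition 6.74%. For CD24 the shares were 68.3% and 30.2%, and for DPP4 they were 64.9% and 34.0%. In these 3 genes the residual was at most 1.50%, and the block narrowed their intervals. The same held for CXCR4, which was not called. Its residual was 1.48%, and its SE was 0.31 with the fraction alone and 0.09 with the block. CD44 and ALCAM leaned on the repetition, at 62.2% and 49.0%, with 33.7% and 42.0% for the fraction. EPCAM had almost no repetition share (0.077%) and a residual of 44.7% on the chosen probe set, whereas the one among chromosome 2 neighbours had 77.4% for the fraction, 5.90% for the repetition and 16.7% for the residual. Over all 18404 genes the median share was 8.21% for the fraction, 67.8% for the repetition and 13.3% for the residual, so CXCR4 had a fraction share close to that of the typical gene. Within each of the 3 repetitions the sign was the same for 6 of the 9 genes, against 36.1% of all genes. Of the 6, 3 were higher, against 17.7%, and 3 lower, against 18.4%. PROM1, the gene of the sort, is among the 6. EPCAM is not by its chosen probe set, whereas its second one was higher in 3 of 3 repetitions.

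**Figure D3:**
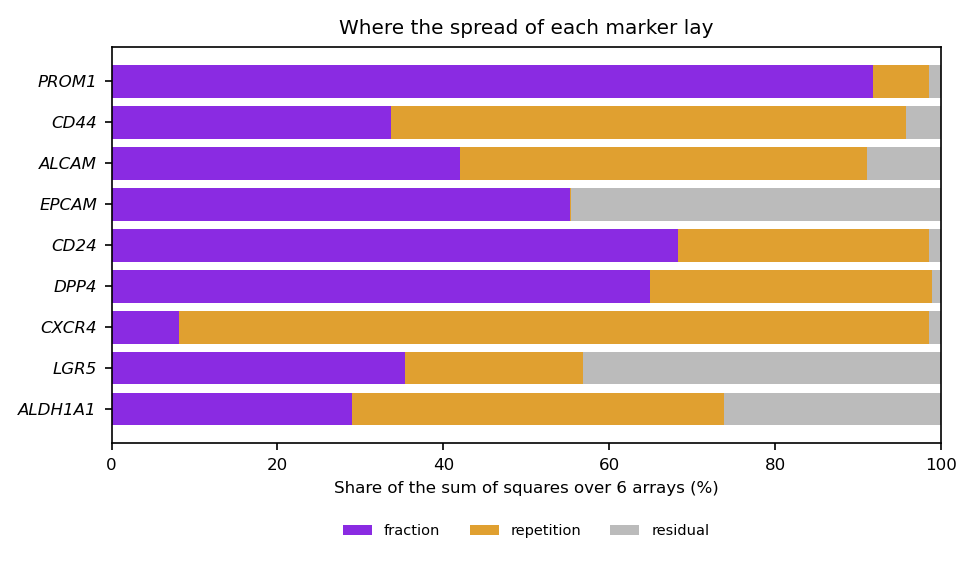
Share (%) of each gene's sum of squares over the 6 arrays that lay between fractions (purple), between repetitions (orange) or in the residual (grey). PROM1 is almost wholly a matter of fraction (91.8%), CXCR4 of repetition (90.4%), and EPCAM, LGR5 and ALDH1A1 keep large residuals. EPCAM is drawn from its probe set of higher mean, and the second one had a residual of 16.7%.

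The genes whose signal followed each separated marker most closely were taken from 1129 genes whose signal ranged over at least 1 log2 unit. Pearson's r over the 6 arrays is a description here, since the arrays form 2 fractions and 3 repetitions and the closest of many genes were picked. For PROM1 the 5 closest were ARHGAP18, MACC1, GPR15, CPOX and S100A14, with r from 0.978 to 0.999. ARHGAP18, a GTPase-activating protein, tracked it through the widening gap, with differences of 0.85, 1.12 and 1.28 in repetitions 1, 2 and 3. For DPP4 the 5 closest were LIPH, CLDND1, FRRS1, NEO1 and DDX60L (r from 0.972 to 0.985), and LIPH, a phospholipase that makes lysophosphatidic acid, differed by 0.95, 0.93 and 1.05. For CD24 they were LILRA6, PRKAA2, ICAM1, SEMA3C and OSBPL10 (r from 0.964 to 0.990). PRKAA2, a catalytic subunit of AMP-activated kinase, differed by -0.61, -0.75 and -0.87, and SEMA3C, a secreted semaphorin, by -1.03, -0.82 and -1.73. Since these genes were picked for following a marker that differed, their own differences follow from the choice and are given with no test.

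Genes that act with the 9 markers, as ligands, co-receptors, paralogs or processing enzymes, and other surface or stem cell markers made lists of 136 genes, of which 122 were measured. Over all 18404 genes, 8817 were higher and 9587 lower, which is the share to set beside the counts of each list below. Of the 122, 61 were higher and 61 lower in CD133+ cells, with a median of -0.0012 against -0.0064 over all genes. With the fraction alone limma called 0 of them, against 0.00354% of all probe sets (17 had an unadjusted p under 0.05, against 3.45%). With the block it called 1, RNF43, against 0.298%. At an unadjusted block p under 0.05 there were 11 higher and 12 lower, against 11.3% of all probe sets.

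RNF43, a ubiquitin ligase that removes Frizzled receptors and is itself cleared when R-spondin binds LGR4 or LGR5, measured 7.28, 7.30 and 7.46 in CD133+ repetitions 1, 2 and 3. The CD133- arrays measured 8.30, 8.16 and 8.42, all above the CD133+ ones. It fell by 0.95 with the block (SE 0.08, limma adjusted p = 0.0205, against 0.142 with the fraction alone), and was lower in 3 of 3 repetitions. This call ended in the block fit without repetition 1 (0.0559), 2 (0.0701) or 3 (0.141) and with the leading rows kept (0.109). The other 11 measured genes of the LGR5 list, among them LGR4 at -0.0035, LGR6 at -0.04 and ZNRF3, the paralog of RNF43, at -0.10, had no call. The ligands RSPO1, RSPO2, RSPO3 and RSPO4 lay between -0.05 and 0.11. These receptors and ligands were chosen for their role after their values were seen.

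The list around CD44 held genes of hyaluronan turnover, its ligand SPP1, the linkers between CD44 and the cytoskeleton, a splicing factor, proteases and a cystine transporter, and 6 of its 15 measured genes were higher. CEMIP, a hyaluronan-binding protein needed to break hyaluronan down, measured 5.90, 5.90 and 6.18 in CD133+ and 5.18, 5.36 and 5.27 in CD133- arrays. The fractions did not overlap, and the difference of 0.72 missed the threshold (limma adjusted p = 0.319 with the fraction alone and 0.0640 with the block). SLC7A11, the cystine transporter that CD44 variants hold at the membrane, had -0.55 (limma block adjusted p = 0.141), with overlapping fractions and 71.0% of its sum of squares between repetitions. The ALCAM list held other adhesion molecules of the immunoglobulin superfamily, the receptor CD6 and the protease ADAM17, with 2 of 7 higher, and MCAM (-0.62) and L1CAM (-0.53) had no call (limma block adjusted p = 0.0963 and 0.256). MCAM's fractions did not overlap, at 6.57 to 6.69 in CD133+ against 7.07 to 7.50 in CD133- arrays.

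Among partners of EPCAM, 6 of 8 measured genes were higher, with a median of 0.17. ST14, the membrane protease matriptase, measured 8.89, 9.03 and 8.90 in CD133+ and 8.43, 8.32 and 8.43 in CD133- arrays, which did not overlap. Its difference was 0.55, and that of CLDN7, a claudin that binds EPCAM, was 0.48, neither called (limma block adjusted p = 0.0921 and 0.143). PROM1's own list had 2 of 6 higher and no call. TTYH3, a membrane protein of the tweety family, had -0.27 and HDAC6, a deacetylase that binds CD133, had -0.20 (limma block adjusted p = 0.306 and 0.436). For PROM2, the paralog of PROM1, CD133+ arrays averaged 5.36 ± 0.30 and CD133- arrays 5.48 ± 0.08 (SD, n = 3 each), a difference of -0.12.

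Relatives and binding partners of DPP4 had no call, with 6 of 10 higher and differences from -0.19 to 0.22. DPP7, a lysosomal dipeptidyl peptidase, had 0.22, and GPC3, a glypican that binds DPP4, had -0.19, neither called (limma block adjusted p = 0.449 and 0.510). FAP, the closest paralog of DPP4, had 0.05. CXCL12, the ligand of CXCR4 and a DPP4 substrate, was dim at 3.59 to 3.86 in CD133+ and 3.78 to 4.05 in CD133- arrays, with a difference of -0.18. CXCR3, another chemokine receptor, had -0.13, and 0 of the 9 measured genes of this list were called (limma block adjusted p = 0.478 for CXCL12 and 0.657 for CXCR3). In the CD24 list SIGLEC10, its receptor on immune cells, had -0.23 and LYN, a kinase that signals beneath CD24, had 0.16, without a call (limma block adjusted p = 0.361 and 0.545).

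Of 18 other genes of the aldehyde dehydrogenase family, 8 were higher and 10 lower, none with a call. ALDH1A3, which makes retinoic acid like ALDH1A1, measured 9.05, 9.60 and 9.67 in CD133+ and 8.53, 8.72 and 8.84 in CD133- repetitions 1, 2 and 3. The fractions did not overlap and the difference was 0.74 (95% interval with the block 0.50 to 0.98; limma block adjusted p = 0.0618, against 0.842 with the fraction alone). ALDH2, the mitochondrial enzyme that clears acetaldehyde, was lower in 3 of 3 repetitions, by -0.39 on average (limma block adjusted p = 0.164). Both missed the threshold.

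Other surface and stem cell markers had 20 of 33 measured genes higher, with a median of 0.05 and no call. ICAM1, the leukocyte adhesion receptor, measured 5.87, 5.82 and 6.03 in CD133+ and 6.65, 6.43 and 7.20 in CD133- arrays, without overlap. Its difference of -0.86 had limma block adjusted p = 0.0697. CD47, the surface signal that restrains phagocytes, had 0.47 (limma block adjusted p = 0.149), higher in 3 of 3 repetitions. Intestinal stem cell genes chosen by role after their values were seen were not called either, with ASCL2 at 0.30, LRIG1 at 0.26, SMOC2 at 0.07 and OLFM4 at 0.04. DCLK1, which marks tuft and stem-like cells, had -0.53, but within repetitions 1, 2 and 3 it differed by -0.24, -1.34 and -0.011.

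**Figure D4:**
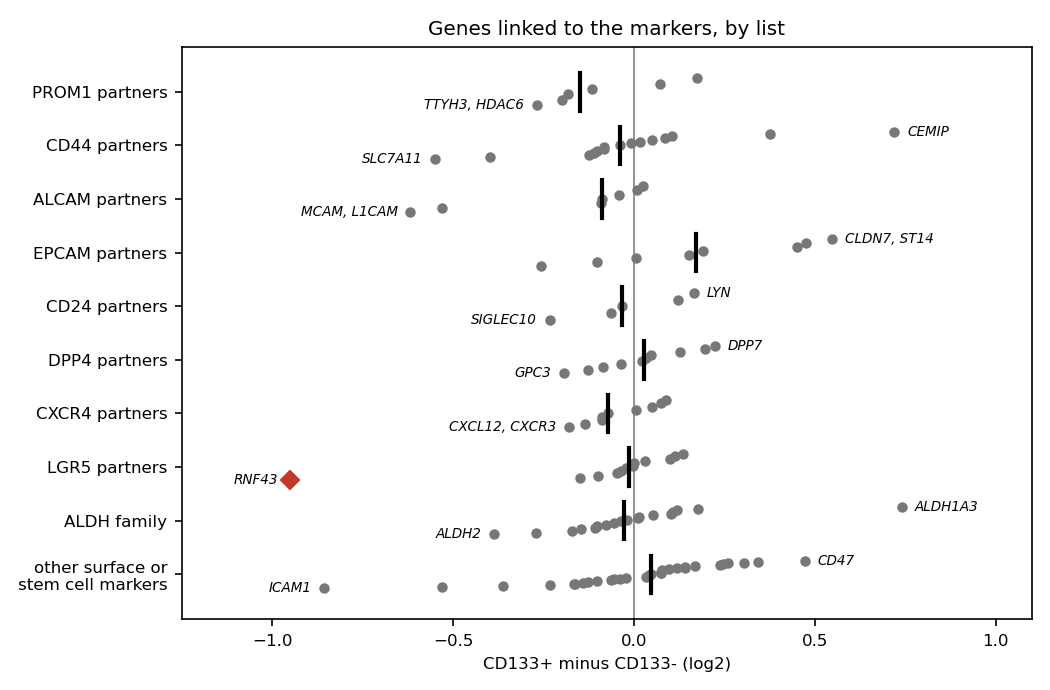
Difference in signal, CD133+ minus CD133- (log2), for the measured genes of each list around the markers. Each point is a gene, black bars are list medians, the red diamond is the 1 gene past the adjusted limma threshold with the repetition block (RNF43, -0.95), and names mark the genes that the naming rule took. List medians lie between -0.15 and 0.17.

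The arrays carried the epithelial character of the line. Of 13 epithelial and colonic markers, 8 were above the array median on every array, including KRT8, KRT18, CDH1 and CDX2. Among intestinal markers, CDX1 and CDX2 were thus above the median on all 6, whereas KRT20, VIL1, CDH17 and GPA33 were below it on all 6. Among these 13, KRT18 had -0.48 and CDH1 0.40, and 0 were called in either limma fit. Of the 13, 3 had an unadjusted limma block p under 0.05, against 11.3% of all probe sets. The mean signal of the list was 7.14 to 7.28 in CD133+ and 7.01 to 7.29 in CD133- arrays. KRT8 and KRT18 were lower in CD133+ cells without overlap between the fractions, as were 4.52% of all genes. Neighbours by identifier were examined for the 9 genes only, so whether the KRT18 probe set reads a copy of the gene was not tested. The leukocyte list averaged 4.25 to 4.30 in CD133+ and 4.21 to 4.50 in CD133- arrays, with PTPRC, which defines leukocytes, below the median on all arrays and only TYROBP and CORO1A of 12 above it. Fractions did not overlap for CORO1A (-0.17) and PTPRC (0.11), at limma block adjusted p = 0.503 and 0.691. Over all genes 7.95% had fractions that did not overlap. The endothelial and haematopoietic progenitor list (10 genes, 4.61 to 4.80 against 4.57 to 4.70) and the fibroblast list (11 genes, 4.32 to 4.47 against 4.31 to 4.55) likewise had 0 calls in either limma fit. EGFL7 and CLDN5 of the former and COL1A1 of the latter were above the median on all 6 arrays. Over the leukocyte list and these lists together, 1 gene, CD34, had an unadjusted limma block p under 0.05, against 11.3% of all probe sets.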

How the data were processed

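The 6 arrays gave log2 signals that the authors made with Robust Multichip Average (RMA), as the labels' design text states. Values spanned 1.09 to 13.7, which shows the log2 scale. The version of RMA was not given in the sources used here. Row identifiers match a whole-transcript array and not the U133 type named in the labels, and the matching annotation was used. Of 32321 rows, 4091 leading rows before the first one with a gene were left out as controls. Among the 28230 probe sets kept, 19158 carried 1 gene symbol, 1388 several and 7684 none. Array medians lay between 5.44 and 5.60, and having only 6 arrays limits precision.

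CD133+ minus CD133- was fitted on all 28230 probe sets with limma 3.58.1 in R 4.3.3 (lmFit, eBayes). The main model held the fraction alone, and adjustment was over all probe sets. Deviations of same-numbered arrays from their fraction means correlated at 0.447, 0.616 and 0.589 over probe sets, above 0.1 in all 3 pairs. The numbers were therefore taken to pair the arrays, from the data and not from the labels, and a fit with the block stands beside the main one. Data for the 28230 probe sets were also simulated for this comparison. On them the block fit recovered 36 of 50 changes of 0.5 and 50 of 50 changes of 1, against 0 and 31 without the block. It also called 15 of 28030 unchanged probe sets, against 0. The simulated data held repetition effects as added terms and the same residual spread for every probe set. The gain of the block was thus built in, and it does not show that the calls in the real data hold. The members and lists were chosen with earlier results of these data known. The naming rule took the 9 genes, the genes of each list called in either fit or else the 2 of smallest block p, and the 5 genes of highest correlation with each called gene. Promoters came from a RefSeq table (GRCh38.p14).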

Additional observations from a re-analysis of the deposited data

How the results depend on the processing

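The 9 differences kept their direction under all 20 alternatives that gave a value, except CXCR4. Of the 20, 4 (the block fit with other scalings and rows) were chosen after seeing the data. CXCR4 ranged from -0.028 to 0.53 when single arrays were left out and was below 0 without CD133+ repetition 3. Several of the 20 could not change a direction, so their agreement tests nothing. The block on all arrays, limma's intensity trend and adding or dropping other rows leave every difference as it was. Averaging the probe sets of a gene changes EPCAM only. Direction was thus tested only by rescaling the arrays and by leaving out arrays or repetitions. CD24, CXCR4, LGR5 and ALDH1A1 gave no value when dim probe sets were left out. With the fraction alone, 1 probe set passed limma, against 0 with quantile normalization repeated, with arrays centred on their medians and with the leading rows included, and 0 to 2 with single arrays left out; 0 of the 9 genes and 0 of the partner genes passed in these fits. With the repetition block, 84 probe sets, 3 of the 9 genes and 1 partner gene passed, with PROM1 at 2.77, DPP4 at 1.44 and CD24 at -1.05. The block changed the call of no other of the 9 genes. Left without repetition 1, 2 or 3, the block fit called 43, 18 and 0 probe sets and 2, 2 and 0 of the 9 genes. PROM1 was then 3.01, 2.71 and 2.60 and DPP4 1.50, 1.31 and 1.51.

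The block fit with quantile normalization repeated called 67 probe sets, 3 of the 9 genes and 1 partner gene (PROM1 2.77, DPP4 1.43, CD24 -1.06). With arrays centred on their medians it called 84, 3 and 2 (PROM1 2.77, DPP4 1.45, CD24 -1.05). With the leading rows limma with the block called 0 probe sets, against 3051 at an unadjusted p under 0.05. Without dim probe sets it called 403, 2 and 11 (PROM1 2.77, DPP4 1.44). There limma was fitted anew on fewer probe sets, and CD24, CXCR4, LGR5 and ALDH1A1 had no value. The cause of these changes was not tested. Signal near background limits what LGR5 and ALDH1A1 can show.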
